A study of Mus musculus with 23 samples.

Results

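*Krt7*, *Krt8*, *Krt18*, *Krt19*, *Cldn4*, *Sfn*, *Lgals3*, *Clu*, *Anxa1* and *Sprr1a* are transcripts of the transitional, *Krt8*-high state of the alveolar epithelium. They were followed through mouse lung tumors initiated by BRAF V600E, with or without PI3Kα H1047R and with or without the coactivator PGC1α. The genes were taken by symbol, and all 10 were found among the 35455 genes of the first table of normalized counts and among the 35454 genes of the second. Alveolar type 2 (AT2) cells make surfactant and, after injury, renew the flat alveolar type 1 (AT1) cells that carry out gas exchange. On this path cells pass through a transitional state known for high keratin 8, claudin 4, stratifin and galectin 3, and similar cells are known from mouse lung tumors. The transcripts are not exclusive to that state, because AT1, club and ciliated cells also make simple-epithelium keratins.

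RNA was measured in 23 libraries of lung tumor cells sorted for tdTomato. Each mouse carried 1 *Braf* CAT allele, a single targeted allele that expresses normal BRAF until CRE recombination and BRAF V600E linked to tdTomato afterwards, and tumors were initiated with an intranasal adenovirus whose CRE is driven by the *Sftpc* promoter of AT2 cells. In the first table, 6 libraries came from BRAF V600E tumors (genotype label CAT/+, called BRAF here), 1, 3 and 2 at 2, 6 and 12 weeks post-initiation (p.i.). A further 8 came from BRAF V600E/PI3Kα H1047R tumors (CAT/+; HR/+, called BRAF/PI3Kα here), which also carry 1 CRE-activated *Pik3ca* allele, 2, 4 and 2 at these times. The second table holds tumors at 12 weeks p.i. that express BRAF V600E and carry floxed *Ppargc1a*, the gene of PGC1α. Of these, 5 libraries kept 1 functional copy after recombination (PGC1a mutant/+, called PGC1α Het) and 4 kept none (PGC1a mutant/mutant, called PGC1α Null). All mice were of a mixed genetic background. Mice taken at 12 weeks had received less virus than those taken earlier, so in comparisons with 12 weeks the time and the virus dose cannot be told apart. Both BRAF/PI3Kα libraries at 2 weeks were labelled male and the BRAF library female, so that sex goes with genotype at that time. Neither table holds normal AT2 cells, so all values compare tumors with tumors.

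The libraries of the first table summed to between 16433820 and 20287296 normalized counts and those of the second to between 7115753 and 9159567. Reads could not be recovered from these values, so the depth in reads is unknown, and the number of libraries and the spread between them limit the precision. *Sftpc*, the defining surfactant transcript of AT2 cells, was present in all 23 libraries, at 21173 or more. By endothelial markers 3 libraries from BRAF/PI3Kα tumors stood apart, 2 week replicates 1 and 2 and 6 week replicate 1. Their mean level over 20 endothelial markers was 11.94, 11.88 and 12.42 on the log2 scale, against 8.47 to 11.36 in the other 11 libraries, and the endothelial adhesion gene *Pecam1* had 11832, 11179 and 16965 normalized counts against 1264 to 7730. The epithelial adhesion gene *Epcam* was at 221, 389 and 446 in the same libraries against 1244 to 3023, and *Sftpc* at 38864, 21173 and 82500 against 164859 to 392700. None of the 20 endothelial markers was at 0 in any of the 14 libraries. By macrophage markers BRAF/PI3Kα 12 week replicate 1 stood apart, with a mean level over 19 markers of 10.02 on the log2 scale against 5.82 to 8.31 in the other 13, and none of these markers at 0. In both BRAF/PI3Kα libraries at 12 weeks the Y-linked gene *Kdm5d* went against the labelled sex, with 502 in replicate 1, a male by its label, and 4728 in replicate 2, a female by its label. Values with sex as a factor use the labels as given and so rest on these 2.

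Positions are those of GRCm38, and each value is for the whole gene. *Krt8* (chr15:101996698-102004482, minus strand) and *Krt18* (chr15:102028180-102032027, plus strand) encode the type II and type I partners of the same filament and are separated by 23698 bases. *Krt7* (chr15:101411043-101430313, plus strand) lies in the same cluster, while *Krt19* (chr11:100140810-100148665, minus strand) lies in the type I cluster. The tight-junction gene *Cldn4* is at chr5:134945119-134946934 (minus strand), *Sfn*, which encodes the p53-induced protein stratifin, at chr4:133600556-133602168 (minus strand), and *Lgals3*, which encodes the sugar-binding galectin 3, at chr14:47367751-47386160 (plus strand). *Clu*, which encodes the secreted chaperone clusterin, is at chr14:65968483-65981547 (plus strand), *Anxa1*, which encodes a membrane-binding annexin, at chr19:20373428-20390944 (minus strand), and *Sprr1a*, which encodes a cornified envelope precursor, at chr3:92483952-92485895 (minus strand). Some reads of *Krt8*, *Sfn* and *Krt18* could have been assigned to processed copies, because 36.0%, 26.9% and 11.4% of their stretches of 31 bases also occur in another gene. Their closest copies, *Krt8-ps*, *Gm7850* and *Gm5200*, were nevertheless listed at no more than 1.91, 5.84 and 2.26 normalized counts in any library.

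A promoter window of 300 bases was available for 8 of the 10 genes in RefSeq (GRCm38.p6), all but *Krt19* and *Clu*. The letters TGANTCA of an AP-1 site, read on both strands, were in 2 of the 8 windows, those of *Cldn4* and *Sprr1a*, and in 7.81% of all 32851 windows of that length. Both are shown, after their values were seen, because they had the largest fold changes between weeks among the 10 genes. Each stretch is the 250 bases before the transcription start, from 5′ to 3′ on the gene's strand (minus strand for both), with the AP-1 letters in capitals. In *Cldn4* (chr5:134946935-134947184) they begin at -240 and -158 relative to the start, and in *Sprr1a* (chr3:92485882-92486131) at -146 and -116.
*Cldn4*: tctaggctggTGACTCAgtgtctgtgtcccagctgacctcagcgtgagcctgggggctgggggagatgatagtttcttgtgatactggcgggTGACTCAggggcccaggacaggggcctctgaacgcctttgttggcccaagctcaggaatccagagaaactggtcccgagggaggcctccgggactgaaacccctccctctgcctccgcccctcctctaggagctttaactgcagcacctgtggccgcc
*Sprr1a*: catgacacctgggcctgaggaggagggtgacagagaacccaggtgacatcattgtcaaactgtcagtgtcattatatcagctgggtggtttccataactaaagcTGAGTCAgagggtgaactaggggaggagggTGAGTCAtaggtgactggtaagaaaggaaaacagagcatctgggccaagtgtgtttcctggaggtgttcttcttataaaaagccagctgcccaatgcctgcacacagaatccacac
A match of letters is a description of the sequence and was not tested as a binding site. The letters CATTCC of a TEAD site were in 1 of the 8 windows (14.7% of all windows), GGGCGG of a GC box in 3 of 8 (35.7%) and TATAAA of a TATA box in 3 of 8 (13.6%), again on both strands.

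The members differed in level by orders of magnitude. Per kilobase of the longest coding transcript, the median over the 14 libraries of the first table was highest for *Clu* (4893 normalized counts per kb), *Anxa1* (2556) and *Krt19* (1423). *Krt18* (924), *Krt7* (644) and *Krt8* (617) followed, then *Lgals3* (125), and *Sprr1a* (43.8), *Sfn* (41.9) and *Cldn4* (9.15) were lowest. The same keratins, *Clu* and *Anxa1* filled the first 6 places among the 9 libraries of the second table, where *Clu* had a median of 7362 per kb and *Krt8* 1083. The order depends on the transcript length used, which was 4094 bases for *Krt7* and 1958 for *Krt8*. Without division by length, the median of *Krt7* over the 14 libraries (2637) was above that of *Krt19* (2243). Every member was above 0 in every library except *Cldn4* in BRAF/PI3Kα 6 week replicate 1 and *Sprr1a* in BRAF/PI3Kα 2 week replicate 2, both listed at 0.

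The first comparison asked whether PI3Kα H1047R altered these transcripts in BRAF V600E tumors, with all weeks together. No member passed the adjusted threshold of 0.05, which 0.0228% of genes passed, and the members did not move in a common direction, with 5 of 10 log2 fold changes above 0 against 51.8% of the 17558 genes tested. The abundant keratins had similar means in both genotypes, *Krt8* with 1283 ± 435 normalized counts (SD, n = 6) in BRAF and 1250 ± 830 (SD, n = 8) in BRAF/PI3Kα tumors, and *Krt7* with 2880 ± 788 and 3048 ± 1421. *Clu* was the member farthest from 0, with 10421 ± 5472 in BRAF and 7016 ± 4818 in BRAF/PI3Kα tumors.

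*Krt8* ranged from 1019 to 2154 with a median of 1119.5 over the 6 BRAF libraries, and from 301 to 2447 with a median of 1431 over the 8 BRAF/PI3Kα libraries. The BRAF/PI3Kα libraries thus lay on both sides of the BRAF range, 3 of them far below it and 1 above it. The log2 fold change was -0.40 (SE 0.50, 95% confidence interval -1.45 to 0.65, adjusted p = 0.888 by limma), an interval that includes changes of more than 2-fold downward. *Krt18* had the same pattern, from 679 to 1994 in BRAF and from 208 to 2113 in BRAF/PI3Kα tumors (log2 fold change -0.55, SE 0.56, adjusted p = 0.867 by limma). *Clu* lay between 4565 and 19057 with a median of 9924 in BRAF tumors and between 694 and 12371 with a median of 8105 with PI3Kα H1047R. Its log2 fold change was -0.95 (SE 0.63, limma adjusted p = 0.775, and p = 0.214 in a two-sided exact permutation test, where 3003 splits allow a smallest p of 0.000666).

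At an unadjusted p under 0.05, 0 of 10 members were called, where 6.83% of all genes were. The median log2 fold change of the members was -0.08, against 0.02 over all genes. The other 7 members had log2 fold changes between -0.60 for *Cldn4* (SE 1.11) and 0.41 for *Sfn* (SE 0.46). In these bulk values, fewer cells of a type and less RNA per cell cannot be told apart. The direction of the members depended on single libraries and settings. The 5 of 10 above 0 became 1 of 10 without both BRAF/PI3Kα libraries at 12 weeks (median -0.45), 2 of 10 without replicate 1 of these alone (median -0.26), 2 of 10 without the BRAF library at 2 weeks (median -0.31) and 2 of 10 with sex as a factor (median -0.25). Without the 3 libraries with high endothelial markers 10 of 10 log2 fold changes were above 0 with a median of 0.48, *Clu* was at 0.13, and *Krt8* was at 0.52 (SE 0.22, unadjusted p = 0.0359, adjusted p = 0.749 by limma), the only member among the 6.28% of genes with an unadjusted p under 0.05 in that fit. The members also turned upward with the endothelial score as a covariate, 9 of 10 above 0 with a median of 0.32. *Sfn* (1.02, limma unadjusted p = 0.0141) was among the 6% of genes called in that fit. With the scaling to the epithelial genes *Epcam*, *Cdh1* and *Nkx2-1*, 7 of 10 were above 0 with a median of 0.40. That scaling moved every gene by 0.49, so the turn under it was not particular to the members. With the macrophage marker score as a covariate the direction was the opposite, 1 of 10 above 0 with a median of -0.65, and 1 member, *Clu*, was among the 8.82% of genes with an unadjusted p under 0.05 (log2 fold change -1.50, unadjusted p = 0.0250 by limma).

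**Figure D1:**
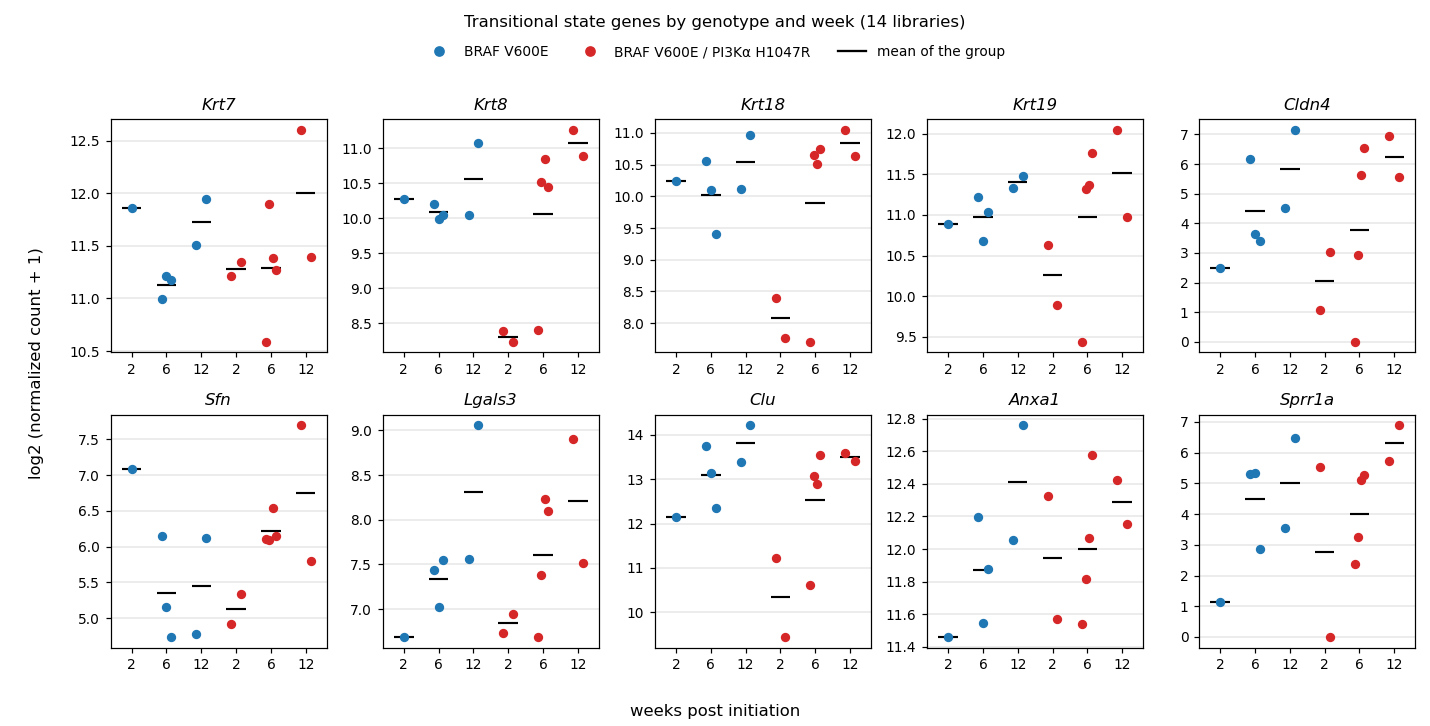
Log2 (normalized count + 1) of each of the 10 genes (one panel per gene, each with its own vertical axis) in the 14 libraries of the first table, by week p.i. on the horizontal axis. Points are libraries colored by genotype and black bars are group means. Both BRAF/PI3Kα libraries at 2 weeks and 1 at 6 weeks lie at the bottom of the *Krt8* and *Krt18* panels, at 208 to 338 normalized counts, while the other 11 libraries lie at 679 or more.

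At 2 weeks p.i. the keratin pair was lower in both BRAF/PI3Kα libraries than in the single BRAF library. *Krt8* was at 1232 normalized counts in the BRAF library and at 334 and 301 with PI3Kα H1047R. *Krt18* was at 1205 against 336 and 216. *Sfn* was at 135 against 29.3 and 39.5. These 3 genes were thus lower in 2 of 2 libraries, by a log2 fold change of -1.96 for *Krt8* (SE 0.79, limma unadjusted p = 0.0285, adjusted p = 0.311), -2.16 for *Krt18* (SE 1.02, unadjusted p = 0.0561, adjusted p = 0.385) and -1.95 for *Sfn* (SE 0.88, unadjusted p = 0.0450, adjusted p = 0.358). *Clu* was at 4565 against 2399 and 694 (log2 fold change -1.82, SE 1.03), *Krt7* at 3719 against 2368 and 2595, and *Krt19* at 1895 against 1581 and 952. *Anxa1* (2818 against 5121 and 3036) and *Lgals3* (102 against 106 and 122) were on the higher side, and *Cldn4* and *Sprr1a*, with 1.09 to 7.24 and 0 to 45.7, overlapped.

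With 1 library against 2 these limma tests borrow the spread of the other weeks, and the lone library is assumed to vary like them. At an unadjusted p under 0.05, 2 members were lower, *Krt8* and *Sfn*, where 6.57% of all genes were. Of the members, 6 lay below the BRAF library in both BRAF/PI3Kα libraries and 2 above it, where 35.1% and 36.6% of all genes did, so the separation by itself sets no member apart. Both BRAF/PI3Kα libraries are among those with high endothelial markers. All 20 endothelial markers had log2 fold changes above 0 in the same comparison, with a median of 3.10, and 15 of 16 AT2 markers lay below 0, with a median of -2.29. Of the macrophage markers 18 of 19 were above 0 (median 1.78), and of the fibroblast markers 16 of 16 (median 1.19). Relative to *Epcam*, *Cdh1* and *Nkx2-1*, a scaling that moved every gene by 1.50, *Krt8* was at -0.46 (SE 0.62), *Sfn* at -0.45 (SE 0.96) and *Krt7* at 0.92. With the endothelial score as a covariate *Krt8* was at -0.27 (SE 0.67). Neither *Krt8* nor *Sfn* had an unadjusted p under 0.05 without either one of the 2 week BRAF/PI3Kα libraries, with this scaling or with this covariate. The scaling turned the members from 3 of 10 above 0 (median -0.61) to 6 of 10 (median 0.89), with *Anxa1* (1.98) called among 30.8% of genes, and the covariate turned them to 8 of 10 (median 0.57), with *Anxa1* (1.32) and *Cldn4* (4.59) called among 8.38% of genes. With sex as a factor the members went the other way, with 2 of 10 above 0 (median -1.80). Without BRAF/PI3Kα 6 week replicate 1, which enters here only through the shared spread, *Krt8* passed the adjusted threshold (limma adjusted p = 0.0454), as did 268 genes of the whole table against 3 with it. The part of the other cells in the 2 week values was not tested further.

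At 6 weeks p.i. no member differed between genotypes at an unadjusted p under 0.05, where 4.24% of all genes did. *Sfn* had the most separated values, 69.9, 34.5 and 25.7 in the BRAF libraries and 68.1, 67.2, 92.1 and 70.0 with PI3Kα H1047R. All 4 BRAF/PI3Kα libraries lay above the BRAF mean, but BRAF replicate 1 lay among them. The log2 fold change was 0.88 (SE 0.55, 95% confidence interval -0.31 to 2.06, adjusted p = 1 by limma, exact permutation p = 0.171, where 35 splits allow no p under 0.0571). *Krt8* was at 1183, 1019 and 1056 in BRAF tumors and at 338, 1469, 1836 and 1392 in BRAF/PI3Kα tumors, so 3 of 4 lay above every BRAF library and replicate 1 far below. *Krt18* was at 208 in BRAF/PI3Kα replicate 1 and at 1450 to 1713 in the other 3, against 679 to 1506, with BRAF replicate 1 inside the range of those 3. *Clu* overlapped fully, at 13850, 9088 and 5205 against 1564, 8624, 7587 and 12024.

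At 12 weeks p.i. there were again no members at an unadjusted p under 0.05, against 3.76% of all genes. *Sfn* was at 26.4 and 68.7 in BRAF and at 206 and 54.9 in BRAF/PI3Kα tumors, and *Sprr1a* at 10.7 and 87.8 against 52.2 and 118. The log2 fold change was 1.30 for each (SE 0.71, limma unadjusted p = 0.0936 for *Sfn*, and SE 1.69 for *Sprr1a*). That of *Sfn* rested on single libraries, at 0.35 without BRAF/PI3Kα replicate 1 and 2.25 without BRAF/PI3Kα replicate 2, and at 0.63 and 1.97 without BRAF replicates 1 and 2. *Krt8* was at 1055 and 2154 against 2447 and 1885, so the groups overlapped, and its log2 fold change was 0.51 (SE 0.64). *Krt7* was at 2914 and 3930 against 6213 and 2696. Without BRAF/PI3Kα replicate 1, the library of high macrophage markers, the members went from 7 of 10 above 0 (median 0.29) to 4 of 10 (median -0.26), *Krt7* from 0.27 to -0.33 and *Lgals3* from -0.11 to -0.80. Without BRAF replicate 2 they went to 10 of 10 above 0 (median 0.68). With the endothelial covariate 10 of 10 were above 0 (median 0.52), and with sex as a factor 5 of 10 (median -0.12). The part of macrophages in the 12 week values was not tested.

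Whether the effect of PI3Kα H1047R differed between weeks was tested by interaction terms. From 2 to 6 weeks, 1 member passed an unadjusted p under 0.05, *Sfn*, whose genotype effect was 2.83 higher at 6 weeks on the log2 scale (SE 1.03, limma unadjusted p = 0.0175, adjusted p = 0.467), where 4.28% of all genes were called in that direction. The difference for *Krt8* was 1.93 (SE 0.93, unadjusted p = 0.0598 by limma) and for *Krt18* 2.04 (SE 1.20). From 2 to 12 weeks *Sfn* (3.25, SE 1.13, limma unadjusted p = 0.0136, adjusted p = 0.466) and *Krt8* (2.47, SE 1.02, unadjusted p = 0.0317, adjusted p = 0.505) were called, against 4.37% of all genes. No member was called between 6 and 12 weeks, against 2.87% of genes in either direction. Each interaction with 2 weeks rests on the same 3 libraries at that time. The markers of other cells moved in the same terms, with 20 of 20 endothelial markers below 0 (median -2.77 for 6 minus 2 weeks and -2.68 for 12 minus 2 weeks) and 14 of 16 AT2 markers above 0 (medians 2.00 and 2.15). The scaling to *Epcam*, *Cdh1* and *Nkx2-1* moved every gene by -1.41 and -1.33 in these terms, and neither with it nor with the endothelial covariate did *Sfn* or *Krt8* have an unadjusted p under 0.05 in either. The count for 12 minus 2 weeks went from 2 to 0 without BRAF/PI3Kα 12 week replicate 1 or without BRAF 12 week replicate 1. Without BRAF/PI3Kα 6 week replicate 1 the count for 6 minus 2 weeks was 4, while 2521 of all genes had an unadjusted p under 0.05 against 1571 with it. The part of the other cells in these terms was not tested further.

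Across time, with genotype held as an additive factor, the members lay on the higher side at 12 weeks relative to 2 weeks p.i., but none passed the adjusted threshold, which 0.786% of genes passed. All 10 log2 fold changes were above 0, against 51.5% of genes, with a median of 1.65 against 0.02 over all genes. At an unadjusted p under 0.05, 6 members were higher, *Clu*, *Lgals3*, *Krt8*, *Cldn4*, *Sprr1a* and *Krt18*, where 8.64% of all genes were. *Clu* had the smallest adjusted p and *Cldn4* the largest fold change. Some other settings brought members past the adjusted threshold by limma, together with more genes of the whole table than the 138 here. *Clu* and *Krt8* passed without BRAF/PI3Kα 6 week replicate 1 (adjusted p = 0.0230 and 0.0491, with 493 genes) and without the BRAF library at 2 weeks (adjusted p = 0.0462 and 0.0374, with 460 genes), and *Clu* with the endothelial covariate (adjusted p = 0.0304, with 349 genes).

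*Clu* was at 4565, 2399 and 694 normalized counts at 2 weeks and at 10760, 19057, 12371 and 10861 at 12 weeks, with BRAF libraries first in each list. All 4 late libraries lay above the 3 early ones. Its log2 fold change was 2.59 (SE 0.64, 95% confidence interval 1.22 to 3.95, limma unadjusted p = 0.00115, adjusted p = 0.0663). *Lgals3* was at 102, 106 and 122 and then at 188, 532, 478 and 181, again without overlap (log2 fold change 1.49, SE 0.46, limma adjusted p = 0.123). *Cldn4* was at 4.60, 1.09 and 7.24 and then at 21.7, 141, 121 and 46.2. Its log2 fold change of 3.79 (SE 1.33, limma adjusted p = 0.163) is on the log2 (normalized count + 1) scale, which understates changes of low genes. *Krt19* was the other member without overlap, at 952 to 1895 and then 2016 to 4221 (log2 fold change 0.97, SE 0.46). These 4 members compare with 6.5% of all genes that were higher in every 12 week library, and the exact permutation p of 0.0571 of each is the smallest that 3 against 4 libraries allow.

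*Krt8* was at 1232, 334 and 301 at 2 weeks and at 1055, 2154, 2447 and 1885 at 12 weeks. The low values at 2 weeks were those of both BRAF/PI3Kα libraries, and the BRAF library at 2 weeks lay within the range of the later BRAF libraries, 1019 to 2154. The log2 fold change was 1.81 (SE 0.57, limma adjusted p = 0.125), and that of *Krt18* 1.82 (SE 0.69, adjusted p = 0.190). *Sprr1a* was at 1.18, 45.7 and 0 and then at 10.7, 87.8, 52.2 and 118, with 1 early library inside the late range (log2 fold change 3.52, SE 1.26, limma adjusted p = 0.169). *Anxa1* (0.58, SE 0.29), *Krt7* (0.40, SE 0.33) and *Sfn* (0.39, SE 0.68) were nearer to 0.

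Markers of other cell types also shared a direction between weeks. Of 16 AT2 markers, 16 were above 0 between 2 and 12 weeks and 15 had an unadjusted p under 0.05, while 19 of 20 endothelial markers (median log2 fold change -0.99), 15 of 16 fibroblast markers and 12 of 14 AT1 markers were below 0 and 18 of 19 macrophage markers above it. Among the AT1 markers 4 fell at an adjusted p under 0.05 by limma, *Ager* (-0.92, adjusted p = 0.0378), *Akap5* (-1.99, 0.0378), *Igfbp2* (-3.41, 0.0478) and *Rtkn2* (-3.76, 0.0378). None of these 4 passed it without the 3 libraries of high endothelial markers or without BRAF/PI3Kα 12 week replicate 1 (limma adjusted p = 0.119 to 0.449), while their log2 fold changes were -0.88, -1.84, -2.46 and -3.19 in the first of these fits and -0.80, -1.79, -2.87 and -3.08 in the second. Without the 3 libraries of high endothelial markers, which leaves the BRAF library alone at 2 weeks, 8 of 10 members were above 0 with a median of 0.61. In that fit *Krt8* was at 0.29 (SE 0.38) and *Krt18* at 0.21, and 2 members had an unadjusted p under 0.05, *Clu* (1.53, SE 0.49) and *Sprr1a* (4.27), against 10.3% of genes. Relative to *Epcam*, *Cdh1* and *Nkx2-1*, which moved every gene by -1.14, *Clu* was at 1.45 (SE 0.47) and *Cldn4* at 2.65, both with an unadjusted p under 0.05 as for 40.7% of genes, while *Krt7*, *Anxa1*, *Krt19* and *Sfn* turned below 0. Without both BRAF/PI3Kα libraries at 12 weeks, whose *Kdm5d* went against their labels, *Clu* and *Lgals3* had an unadjusted p under 0.05, against 8.58% of genes. The part of the other cell types in the higher values of the members was not tested further.

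From 2 to 6 weeks, 1 member had an unadjusted p under 0.05, *Clu* (log2 fold change 1.76, SE 0.57, limma adjusted p = 0.264), where 6.58% of genes were higher at that p. That count was 7 without BRAF/PI3Kα 6 week replicate 1 and 0 without BRAF/PI3Kα 2 week replicate 2. In either direction, 2756 of 17564 and 1915 of 17555 genes had an unadjusted p under 0.05 in these fits, against 2095 of 17558 in the main fit. From 6 to 12 weeks all 10 members were again above 0, against 49.6% of genes. In the same comparison 16 of 16 AT2 and 18 of 19 macrophage markers were above 0, 10 of the latter with an unadjusted p under 0.05, and 18 of 20 endothelial markers below it, and their part in the direction of the members was not tested. *Krt7* was the only one called (0.65, SE 0.27, limma unadjusted p = 0.0312, adjusted p = 0.901), against 2.3% of genes. That call was lost without BRAF/PI3Kα 12 week replicate 1, which holds the highest *Krt7* value, without both BRAF/PI3Kα libraries at 12 weeks, without any 1 of BRAF/PI3Kα 6 week replicate 1, BRAF 6 week replicate 1 or BRAF 12 week replicate 2, with the scaling to *Epcam*, *Cdh1* and *Nkx2-1* and with the endothelial covariate, each of which left 0 members called. The range of *Krt7* was 1539 to 3818 in the 7 libraries at 6 weeks and 2696 to 6213 in the 4 at 12 weeks.

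**Figure D2:**
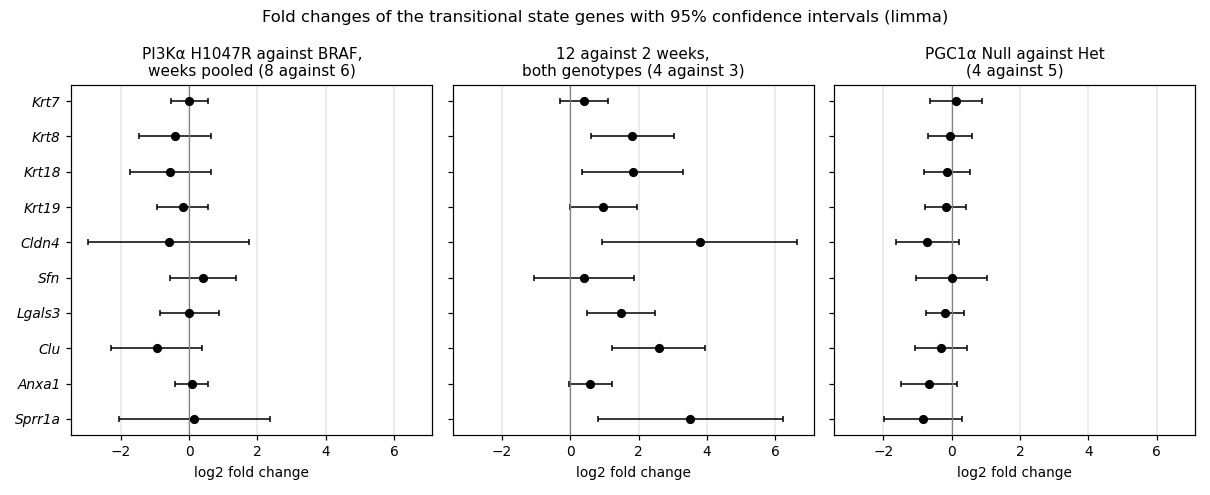
Log2 fold changes (horizontal axis) of the 10 genes (vertical axis) by limma in 3 comparisons, BRAF/PI3Kα against BRAF tumors with weeks pooled, 12 against 2 weeks p.i., and PGC1α Null against PGC1α Het. Points are estimates and bars are 95% confidence intervals. All 10 estimates lie above 0 for 12 against 2 weeks, from 0.39 to 3.79, while the pooled genotype comparison has 5 on each side and every interval of both genotype comparisons crosses 0.

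Among 48 other genes linked to the transitional state, written down from general knowledge, 45 could be tested in the first table. Between 2 and 12 weeks 3 of these rose at an adjusted p under 0.05, *Ccnd1*, which encodes cyclin D1 (log2 fold change 1.89, adjusted p = 0.0378), *Cdkn1a*, which encodes the p53-induced cell cycle inhibitor p21 (2.69, adjusted p = 0.0381), and *Tnip3*, which encodes an inhibitor of NF-κB signaling (2.44, adjusted p = 0.0381, all by limma). At an unadjusted p under 0.05, 14 were higher and 8 lower, against 8.64% and 8.46% of all genes. The 8 lower ones included the YAP targets *Ctgf* (-2.38) and *Cyr61* (-1.09), *Tgfb2* (-1.92), *Fn1* (-1.38) and *Hopx* (-1.99), a gene also marking AT1 cells. The genes called in the higher direction included *Ly6d* (4.11), *S100a14* (3.16) and the keratin gene *Krt23* (2.36), none of which passed the adjusted threshold. Among relatives of the members, the claudin gene *Cldn3* rose (3.30, limma adjusted p = 0.0378). The adjusted calls of *Ccnd1*, *Cdkn1a*, *Tnip3*, *Cldn3* and the AT1 markers between these weeks did not hold in every fit. None of them passed without any 1 of BRAF/PI3Kα 12 week replicate 1, BRAF/PI3Kα 2 week replicate 1, BRAF 12 week replicate 2 or BRAF 6 week replicate 2, nor without both BRAF/PI3Kα libraries at 12 weeks or with no filter on low values, though each kept an unadjusted p under 0.05. In these fits the log2 fold changes were 1.81 to 1.99 for *Ccnd1*, 2.15 to 2.81 for *Cdkn1a*, 1.72 to 2.45 for *Tnip3* and 2.77 to 3.38 for *Cldn3*. With a replicate block none of these calls passed the adjusted threshold either, and each kept an unadjusted p under 0.05. Over the whole table, the 138 genes past the adjusted threshold became 0 by limma without BRAF/PI3Kα 12 week replicate 1, with 2205 at an unadjusted p under 0.05, and 0 without both, with 1502. Without the 3 libraries of high endothelial markers, which left 5 genes past the threshold, *Cldn3* was at 1.12 (unadjusted p = 0.0766), *Cdkn1a* at 1.16 (0.0468), *Ccnd1* at 1.21 (0.00801) and *Tnip3* at 2.20 (0.000341, all by limma). Of 7 testable cornified envelope genes 6 were above 0 and 5 had an unadjusted p under 0.05, among them *Sprr2a1* at 4.89 (SE 1.71).

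Between genotypes, 17 of the 45 genes were above 0 and 28 below, and 1 in each direction had an unadjusted p under 0.05, *Tpm2* (0.97) and *Dusp5* (-1.26), against 3.46% and 3.38% of all genes. The highest log2 fold changes were those of *Ly6d* (1.01), *Tpm2* and *Tm4sf1* (0.74), and the lowest those of *Krt23* (-1.34), *Gdf15* (-1.28) and *Dusp5*, and no gene of the list passed the adjusted threshold.

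Keratin 8 and keratin 18 pair in a filament, so their transcripts were compared within libraries. Their ratio stayed between 0.785 and 1.62 over the 14 libraries, although *Krt8* itself varied 8.13-fold and *Krt18* 10.2-fold. Because the 3 libraries with high endothelial markers form a cluster of their own, the relation was taken over the other 11, where Pearson's r of the log2 values was 0.80 (permutation p = 0.0008) and Spearman's rho 0.85 (permutation p = 0.00182). Benjamini-Hochberg adjustment over the 3 relations computed left both at 0.0008 and 0.00182. Without the 2 libraries farthest from the median of *Krt8*, r was 0.66. In the 9 libraries of the second table the ratio was 0.647 to 0.894 and r 0.96 (permutation p = 0.00014, adjusted p = 0.00021), with rho 0.98 (permutation p = 8e-05, adjusted p = 0.00012), and r was 0.91 without the 2 farthest libraries.

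*Krt7* and *Krt19* did not keep this proportion in the 3 libraries with high endothelial markers. The ratio of *Krt7* to *Krt8* was 7.10 and 8.62 in both BRAF/PI3Kα libraries at 2 weeks and 4.56 in BRAF/PI3Kα 6 week replicate 1, against 1.43 to 3.02 in the other 11. The ratio of *Krt19* to *Krt18* was 4.70, 4.41 and 3.34 in the same libraries, against 1.275 to 3.08 in the other 11. In the second table *Krt7* to *Krt8* was 1.33 to 2.16. The ratio of *Krt8* to the epithelial gene *Epcam* was 0.399 to 0.849 in BRAF and 0.670 to 1.51 in BRAF/PI3Kα libraries, and in the 3 libraries with the lowest *Krt8* it was 1.51 and 0.774 at 2 weeks and 0.757 at 6 weeks, within the range of the other BRAF/PI3Kα libraries except for the first.

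Over the 14 libraries, *Krt18* was the gene most like *Krt8* of 17557 (r = 0.96, a description, since the libraries share depth and cell mixture). Next came *Ctsh*, *Pcsk6*, *Nectin4*, *Rassf2* and *Marcksl1-ps4*, at 0.95 to 0.96. Over the 11 libraries without those of high endothelial markers, *Krt18* ranked 63rd among 17555 genes (r = 0.80) while *Rassf2* was first (0.96), *Nectin4* ranked 47th (0.81) and *Lgals3* 85th (0.78). The correlation of *Krt8* with *Pecam1* was -0.79 over 14 libraries and -0.46 over these 11, and that with *Epcam* 0.90 and 0.27. In the second table the genes most like *Krt8* were *Rpl7a*, *Jag1*, *Tubb5*, *Bcr* and *Lmna* (each 0.97), and *Krt18* ranked 10th, *Krt7* 45th (0.94) and *Krt19* 146th (0.90).

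**Figure D3:**
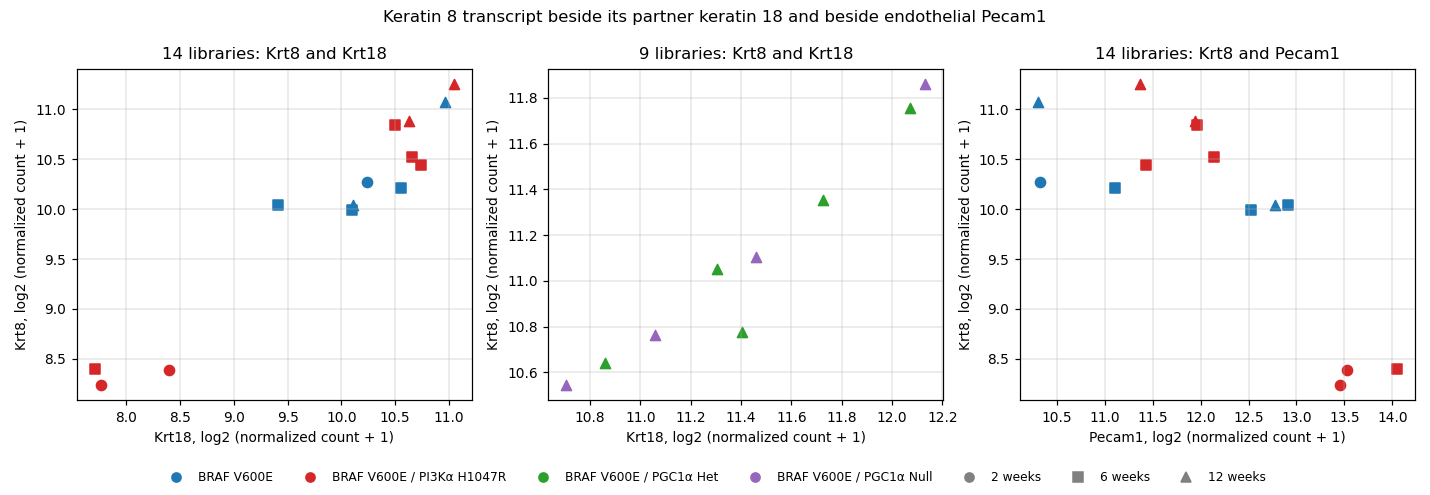
*Krt18* against *Krt8* in the 14 libraries of the first table and in the 9 of the second, and *Pecam1* against *Krt8* in the 14, all as log2 (normalized count + 1), with points colored by group. The 3 BRAF/PI3Kα libraries of high endothelial markers sit apart at low *Krt8* and high *Pecam1*, and over the other 11 libraries *Krt8* and *Krt18* had an r of 0.80.

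The second table asked whether loss of PGC1α altered the same genes at 12 weeks p.i. *Ppargc1a* itself had 75.8, 170, 155, 199.5 and 561 normalized counts in PGC1α Het and 72.7, 38.0, 51.6 and 124 in PGC1α Null libraries. The ranges overlapped, and the gene-level value includes exons outside the deleted part, so it is a limited check of the labels. No member passed the adjusted threshold, as 0% of genes did, with 0 at an unadjusted p under 0.05 against 3.83% of 17424 genes, and 8 of 10 log2 fold changes lay between -0.84 and -0.05, against 51.1% of genes above 0, with *Krt7* at 0.13 (SE 0.36) and no difference in *Sfn* on this scale (SE 0.48). The median was -0.18.

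*Krt8* was at 2120, 1752, 3456, 2612 and 1598 in PGC1α Het and at 1736, 3720, 2202 and 1493 in PGC1α Null libraries. The PGC1α Null group held both the highest and the lowest of the 9 values, and the means of 2308 ± 752 (SD, n = 5) and 2288 ± 999 (SD, n = 4) were close. The log2 fold change was -0.05 with a 95% confidence interval of -0.70 to 0.60 (adjusted p = 0.998 by limma). *Anxa1*, at 2925, 3855, 5410, 4760 and 2141 against 1734, 4917, 2548 and 1232, had a log2 fold change of -0.67 (SE 0.38, limma unadjusted p = 0.103, adjusted p = 0.998, exact permutation p = 0.206, where 126 splits allow 0.0159).

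*Cldn4* was narrow in PGC1α Het tumors, at 306, 242, 314, 250 and 267, and wide in PGC1α Null tumors, at 84.9, 468, 211 and 91.3. Its log2 fold change was -0.72 (SE 0.43, exact permutation p = 0.254). *Sprr1a* was at 330, 244, 198, 251 and 118 against 152, 291, 152 and 30.7 (-0.84, SE 0.53, exact permutation p = 0.270). For both genes 3 of 4 PGC1α Null libraries lay below the PGC1α Het mean and replicate 2 above it. No member separated the groups completely, where 0.941% and 0.459% of genes did in either direction. PGC1α Null replicate 2 was the highest of the 9 libraries for *Krt8*, *Krt18*, *Krt19*, *Cldn4*, *Sfn* and *Clu*, and replicate 4 the lowest for *Krt8*, *Krt18*, *Krt19*, *Lgals3*, *Clu*, *Anxa1* and *Sprr1a*. Without PGC1α Null replicate 2, *Cldn4* was at -1.21 (SE 0.32, limma unadjusted p = 0.00239, adjusted p = 0.566), *Anxa1* at -1.04 (SE 0.33) and *Sprr1a* at -1.26 (SE 0.51), so that 3 members had an unadjusted p under 0.05, against 5.71% of genes. That fit gave the largest falls of these genes. At the other end of the fits without 1 library, *Cldn4* was at -0.39, *Anxa1* at -0.38 and *Sprr1a* at -0.19. The count of members called was 0 to 3 over these fits.

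Markers of other cells also shared a direction between these genotypes. All 18 testable endothelial markers were above 0 in PGC1α Null tumors, 13 with an unadjusted p under 0.05. Their mean level was 4.34 to 5.82 on the log2 scale in PGC1α Het and 6.12 to 6.84 in PGC1α Null libraries, with *Pecam1* at 98.7 to 200 against 254 to 410, and up to 3 and up to 1 of 20 markers were at 0 in a library. Of the macrophage markers 17 of 19 were above 0, of the fibroblast markers 15 of 15 and of the club cell markers 11 of 12, while 14 of 16 AT2 markers lay below 0. With the endothelial score as a covariate 8 of 10 members were above 0, *Anxa1* at 0.43 and *Sprr1a* at 0.13, but the scores of the genotypes do not overlap, so genotype and endothelial score cannot be told apart in that fit. With the macrophage score as a covariate 4 of 10 were above 0 (median -0.19), and with the scaling to *Epcam*, *Cdh1* and *Nkx2-1*, which moved every gene by 0.18, 5 of 10. The part of these cells in the values was not tested further.

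Of the wider list, 46 genes could be tested in the second table, with 13 above 0 and 33 below. The highest was *Tm4sf1*, which encodes a membrane protein also abundant in endothelial cells (1.85, limma unadjusted p = 0.0025, adjusted p = 0.618), followed by *Basp1* (0.45) and *Krt20* (0.44). The lowest were *Itgb6*, the epithelial integrin subunit that activates TGFβ (-1.08, limma unadjusted p = 0.0421), *Slc4a11* (-0.95) and *Phlda3* (-0.70).

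**Figure D4:**
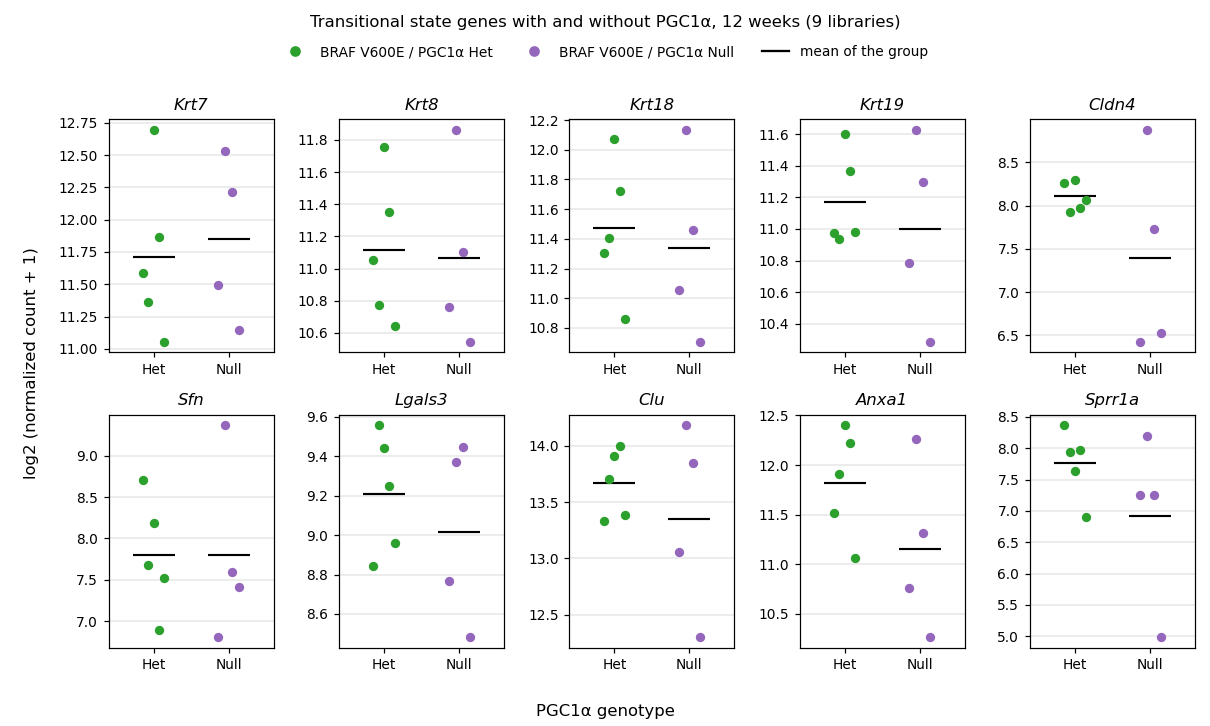
Log2 (normalized count + 1) of each of the 10 genes (one panel per gene, each with its own vertical axis) in the 5 PGC1α Het and 4 PGC1α Null libraries at 12 weeks p.i. Points are libraries and black bars are group means. The groups overlap in every panel, and for *Cldn4* the PGC1α Null libraries spread from 84.9 to 468 normalized counts while the PGC1α Het libraries lie between 242 and 314.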

How the data were processed

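RNA of sorted tdTomato+ tumor cells was prepared with the Qiagen RNeasy micro and Nugen Ovation Ultralow V2 kits and sequenced single-end. The signal values in the deposited tables are Salmon estimates normalized by DESeq2 by the authors, separately for each table, so tests were made only within a table. The submitters' processing notes name GRCm38 and FastQC, and tool versions are not given in the sources used here. The deposited comparison tables hold the authors' base means, log2 fold changes, standard errors, Wald statistics and p-values, and were not used. All 23 columns were matched to samples by their labels. Of the low values 10.6% to 41.5% and 15.2% to 26.8% of a library were whole steps, so reads were not recovered and no count test was run. Correlations between libraries were 0.780 to 0.930 and 0.779 to 0.942, and none was a duplicate.

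Log2 (normalized count + 1) was fitted with two-sided limma-trend tests (limma 3.58.1, R 4.3.3), keeping genes whose mean reached 10, with Benjamini-Hochberg adjustment over all genes tested and a threshold of 0.05. One fit took genotype with weeks pooled, another a mean for each genotype and week, another genotype and week as additive factors for the comparisons between weeks, and another PGC1α genotype. Single values were also compared by two-sided exact permutation. The labels do not say that replicates were separate mice, as the methods do, and p-values measure the spread between these libraries. Symbols were matched to GENCODE vM21 for positions and shared sequence and to RefSeq GRCm38.p6 for promoters. Other steps used scipy 1.17.1, pandas 2.3.3, numpy 2.4.6 and, for plots, matplotlib 3.10.9 under Python 3.11.15, and the fits were tested on simulated data. The members and lists were chosen with earlier results of these data known. Named by rule were all members, genes of the wider list and of the members' families that passed the adjusted threshold, the 3 highest and 3 lowest of the wider list in each genotype comparison, the 5 genes most like *Krt8* in each table and marker genes that check the labels. *Cyr61*, *Tgfb2*, *Ctgf*, *Fn1*, *Hopx*, *S100a14*, *Sprr2a1*, *Akap5*, *Igfbp2*, *Rtkn2* and, between weeks, *Ly6d* and *Krt23* were named after their values were seen. Alternatives were a pseudocount of 4, a mean over 40, all genes with any value, quantile normalization, sex or a marker score as a covariate, a replicate block and leaving out libraries.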

Additional observations from a re-analysis of the deposited data

Results flagged for a closer look

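In BRAF/PI3Kα tumors at 6 weeks p.i. 1 of the 4 libraries stood apart from the others for each of 3 members, replicate 1 for 2 of them and replicate 3 for the third. *Krt8* was lowest in replicate 1, at 338 normalized counts against 1392 to 1836 in the other libraries, and the gap to the nearest library was 0.837 of the whole range of log2 values. *Krt18* was lowest in the same library, at 208 against 1450 to 1713, with a gap of 0.921 of the range. *Sfn* was highest in replicate 3, at 92.1 against 67.2 to 70.0, with a gap of 0.870 of a narrow range. Replicate 1 is one of the libraries with high endothelial markers, and the part of those cells in its values was not tested. In all, 3 of the 30 groups of values tested (10 members in 3 groups of 4 or 5 libraries) were this uneven, and chance gives about 1 in 20 for a single group. The groups are not independent, because *Krt8* and *Krt18* vary together and flag the same library. The count therefore cannot be read against that rate.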

How the results depend on the processing

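The comparisons rest on 1 to 5 libraries a group, and the depth in reads is unknown. Counts below are members with an unadjusted p under 0.05. Scaling to *Epcam*, *Cdh1* and *Nkx2-1*, leaving out the 3 libraries of high endothelial markers and, in the fits with weeks, the endothelial covariate were chosen after seeing the data. A value was followed here where its log2 fold change exceeded its standard error. Apart from leaving out single libraries, 421 such values kept their direction and side of the adjusted threshold, 2 newly passed it and 21 changed sign, and in the fits that left out 1 library 622 kept both and 5 newly passed. Part of the changes of sign came from the scaling, which moves every gene of a comparison alike and so says nothing particular about the members.

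Between genotypes with weeks pooled the count of 0 became 1 with the macrophage covariate, 1 with the endothelial covariate and 1 without the 3 libraries, where *Clu* turned to 0.13. At 2 weeks the count of 2 became 1 with a mean over 40, 1 with quantile normalization, 1 with sex as a factor and 1 with the scaling. There *Krt7* turned to 0.92 with the scaling and, with the endothelial covariate, *Clu* to 0.36, *Krt18* to 0.17 and *Krt7* to 0.17. At 12 weeks the count became 1 with the endothelial covariate. For the genotype effect at 6 minus 2 weeks it became 2 with sex, and *Clu* and *Krt7* turned to -0.14 and -0.66 with the scaling and *Clu* and *Krt18* to -0.67 and -0.020 with the endothelial covariate. At 12 minus 2 weeks it became 1 with either of these, and *Krt7* turned to -0.47 with the scaling and *Clu* to -0.34 with the covariate.

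From 2 to 6 weeks the count of 1 became 2 with sex, 2 with the scaling and 3 with the endothelial covariate. Of all 17558 genes, 2038, 4314 and 2728 had an unadjusted p under 0.05 in these fits, against 2095 in the main fit. *Krt19* and *Lgals3* turned to -0.34 and -0.12 with the scaling, and *Krt18* and *Krt8* to -0.15 and -0.18 without the 3 libraries. From 6 to 12 weeks it became 2 with sex, 2 without the 3 libraries, and 0 with the scaling, the endothelial covariate or without both BRAF/PI3Kα 12 week libraries. From 2 to 12 weeks the count of 6 became 2 under each of the scaling, without the 3 libraries and without both BRAF/PI3Kα 12 week libraries. *Anxa1*, *Krt19* and *Krt7* turned to -0.55, -0.17 and -0.74 with the scaling, and *Krt7* to -0.17 without the 3 libraries. With the endothelial covariate *Clu* passed the adjusted threshold from 2 to 6 weeks (1.68, limma adjusted p = 0.0345) and from 2 to 12 weeks (2.00, limma adjusted p = 0.0304), where the genes past it over the whole table went from 9 to 312 and from 138 to 349. Between PGC1α Null and Het tumors the count became 1 with sex, and *Anxa1* and *Sprr1a* turned to 0.43 and 0.13 with the endothelial covariate. The cause of these changes was not tested.

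In the fits without 1 library, the counts were 0 to 0 between genotypes with weeks pooled, 1 to 3 at 2 weeks, 0 to 0 at 6 weeks and 0 to 1 at 12 weeks. They were 1 to 4, 0 to 3 and 0 to 0 for the interactions at 6 minus 2, 12 minus 2 and 12 minus 6 weeks, and 0 to 7, 0 to 4 and 4 to 7 from 2 to 6, from 6 to 12 and from 2 to 12 weeks. Between PGC1α Null and Het tumors they were 0 to 3. Leaving out BRAF/PI3Kα 6 week replicate 1 gave the highest count at 2 weeks, for 6 minus 2 weeks and from 2 to 6 weeks, and brought *Krt8* at 2 weeks (limma adjusted p = 0.0454) and *Clu* and *Krt8* from 2 to 12 weeks (adjusted p = 0.0230 and 0.0491) past the threshold, where the genes past it over the whole table went from 3 to 268 and from 138 to 493. Without BRAF 2 week replicate 1 the latter were at 0.0462 and 0.0374, with 460 genes past it.

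Groups share replicate numbers in the labels, but the deviations of same-numbered libraries correlated at -0.284 to 0.257 over 21 pairs and -0.467 to 0.211 over 4 pairs, with 2 pairs above 0.1 in each, so the numbers were taken as names only. With a replicate block the count became 1 at 2 weeks, 0 for the genotype effect at 6 minus 2 weeks, 2 from 6 to 12 weeks and 1 between PGC1α Null and Het tumors. From 2 to 12 weeks 2 genes of the whole table passed the adjusted threshold with the block, against 138 without it.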
